A study of Mus musculus with 24 samples.

Results

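The comparison described here is the response to lipopolysaccharide (LPS), a cell wall component of Gram-negative bacteria, of mouse embryonic fibroblasts carrying the glucocorticoid receptor (GR) mutant GR Zn/Zn, kept in dexamethasone (Dex), a synthetic glucocorticoid that binds this receptor. Its members are the 6 libraries whose titles name GR MUT DexLPS replicates 1 to 3 and GR MUT Dex replicates 1 to 3, out of 24 in the series. GR MUT DexLPS cells received 1 uM Dex for 16 h and LPS for 6 h at 100 ng/ul, a unit given by the labels that no other source here checks, and GR MUT Dex cells received 1 uM Dex for 16 h. The series holds RNA-seq of 2 genotypes under 4 treatments, 8 groups of 3 libraries. Besides the pair above, the text uses the same LPS contrast without Dex in the mutant (GR MUT LPS, given ethanol and LPS, against GR MUT CTR, given ethanol, the vehicle of Dex) and in wild-type cells kept in Dex (GR WT DexLPS against GR WT Dex). All groups are primary fibroblasts of male C57BL/6 embryos taken at day 13.5, with head and inner organs (mainly heart and liver) removed, after 7 days in culture. In GR Zn/Zn cells a zinc finger, with which the receptor contacts DNA, is altered. The whole embryo carried the allele, so an effect of genotype and one of the embryo or culture of origin cannot be told apart. Nothing in the labels says that replicates were separate cultures, and the p-values then measure only how far these libraries scatter, possibly for technical reasons.

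LPS is sensed by the receptor TLR4, which signals through 2 adaptor branches. One, through MyD88, activates NF-kB and the genes of inflammatory cytokines and chemokines. The other, through TRIF, activates IRF3 and interferon beta; secreted interferon then acts through its own receptor, the kinases JAK1 and TYK2 and a complex with STAT2 and IRF9, which binds the interferon-stimulated response element (ISRE) in the promoters of antiviral genes. Liganded wild-type GR is known to repress many LPS-induced genes and to induce genes such as Tsc22d3 and Fkbp5 by binding DNA.

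The 6 libraries held 19.5 to 22.6 M reads (M, 1e+06 reads) counted to genes and 19163 to 19752 genes with a read. Levels are counts per 1e+06 counted reads (CPM) on library sizes scaled by TMM, and a count of 0 allowed up to 0.133 to 0.154 CPM (3 reads; counting error only). Nr3c1, the gene of GR, is not deleted in this mutant, so its level does not check the labels; it was read in every library, at 111, 69.6 and 100.4 CPM in GR MUT DexLPS and at 81.1, 79.5 and 77.8 CPM in GR MUT Dex cells; its adjusted p was 0.161. Library 2 of GR MUT DexLPS stood apart from libraries 1 and 3. A chi-square test of counts ran over 13674 to 13710 tested genes a pair, those with enough reads. It gave 25.0 and 21.2 per degree of freedom between library 2 and the other 2, against 1.90 between those 2. The rank correlation of each library's deviation from its group mean with exon length was -0.656 in library 2. It was 0.583 and 0.584 in libraries 1 and 3. Deviations of 3 libraries from their own mean sum to 0, so these correlations are not independent. These were taken over 9254 genes with a mean of at least 10 CPM, which share these libraries. The 9 fibroblast markers summed to 23002, 24342 and 22958 CPM in GR MUT DexLPS and to 25729.6, 24719 and 27394 CPM in GR MUT Dex cells, and all 9 were read in both groups. Of 13 leukocyte markers, Cd3e was among those at 0 in both groups. The 13 summed to 187, 199 and 175 CPM in GR MUT DexLPS and 221, 199 and 217 CPM in GR MUT Dex cells, against 89.2, 83.7 and 86.2 CPM in GR WT DexLPS and 75.8, 72.9 and 83.9 CPM in GR WT Dex cells. The cultures thus held reads of myeloid genes in both genotypes, at a higher summed level in the mutant. The 10 liver markers summed to 15.0, 18.6 and 20.7 CPM in GR MUT DexLPS and 32.3, 2.91 and 4.16 CPM in GR MUT Dex cells. In bulk libraries, fewer cells of a type and less RNA per cell cannot be told apart.

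Ifit1, an interferon-induced protein that binds viral RNA (chr19:34640871-34650009, GRCm38, plus strand), stood at 552, 366 and 459 CPM in GR MUT DexLPS and at 2.89, 1.73 and 2.02 CPM in GR MUT Dex cells. Cxcl10, a chemokine that attracts T cells (chr5:92346638-92348889, minus strand), stood at 1194, 856 and 1043 CPM in GR MUT DexLPS and at 1.62, 1.14 and 0.987 CPM in GR MUT Dex cells. Il6, an inflammatory cytokine of the NF-kB branch (chr5:30013114-30019981, plus strand), stood at 59.2, 58.2 and 55.5 CPM in GR MUT DexLPS and at 1.49, 2.11 and 1.76 CPM in GR MUT Dex cells. In all 3 genes every library with LPS lay above every library without it, as it did in 22% of all tested genes, and library 2 with LPS was the lowest of its group for Ifit1 and Cxcl10. The rises were 208-fold for Ifit1 (log2 difference 7.70 ± 0.23 SE, adjusted p 7.94e-17), 825-fold for Cxcl10 (9.69 ± 0.18, adjusted p 8.38e-21) and 32.2-fold for Il6 (5.01 ± 0.13, adjusted p 9.31e-19). These and all later p-values are from edgeR's quasi-likelihood test over 15221 genes with Benjamini-Hochberg adjustment, and a gene is called at an adjusted p below 0.05.

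The promoters of these 3 genes and of 3 further antiviral genes, Rsad2, Isg15 and Oasl2, are printed below. They show where some of the letters read by the interferon and NF-kB branches lie. Each runs from 250 bases before to 50 after the RefSeq start (GRCm38.p6), 5′ to 3′ on the gene's strand. Capitals mark matches, on either strand, to the core of an ISRE (GAAA, any 2 bases, GAAA) or to an NF-kB motif (GGGA, any base, TTTCC). Only these letters were searched, so a binding site with other letters stays in lower case.
Ifit1, chr19:34640639-34640938, plus strand: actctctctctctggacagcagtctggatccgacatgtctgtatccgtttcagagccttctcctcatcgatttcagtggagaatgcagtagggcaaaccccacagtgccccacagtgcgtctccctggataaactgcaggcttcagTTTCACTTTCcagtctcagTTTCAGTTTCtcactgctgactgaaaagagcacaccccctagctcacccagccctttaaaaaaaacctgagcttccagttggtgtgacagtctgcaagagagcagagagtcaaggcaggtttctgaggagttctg
Rsad2, chr12:26456403-26456702, minus strand: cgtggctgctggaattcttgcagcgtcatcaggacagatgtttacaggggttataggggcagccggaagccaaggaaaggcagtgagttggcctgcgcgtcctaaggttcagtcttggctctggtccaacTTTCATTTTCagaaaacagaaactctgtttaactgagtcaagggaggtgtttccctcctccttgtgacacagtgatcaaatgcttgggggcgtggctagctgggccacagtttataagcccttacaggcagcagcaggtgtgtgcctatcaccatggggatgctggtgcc
Isg15, chr4:156200769-156201068, minus strand: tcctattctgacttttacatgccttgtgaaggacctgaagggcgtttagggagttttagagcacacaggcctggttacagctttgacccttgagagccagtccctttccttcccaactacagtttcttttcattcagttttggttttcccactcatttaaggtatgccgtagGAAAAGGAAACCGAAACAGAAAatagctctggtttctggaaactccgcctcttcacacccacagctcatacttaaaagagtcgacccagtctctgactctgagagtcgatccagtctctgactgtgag
Oasl2, chr5:114896684-114896983, plus strand: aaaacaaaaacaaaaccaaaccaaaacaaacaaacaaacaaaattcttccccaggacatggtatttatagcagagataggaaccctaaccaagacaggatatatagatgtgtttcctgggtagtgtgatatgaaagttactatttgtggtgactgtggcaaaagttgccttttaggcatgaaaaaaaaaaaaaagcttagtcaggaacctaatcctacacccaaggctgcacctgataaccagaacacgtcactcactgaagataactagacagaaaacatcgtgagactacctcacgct
Cxcl10, chr5:92348840-92349139, minus strand: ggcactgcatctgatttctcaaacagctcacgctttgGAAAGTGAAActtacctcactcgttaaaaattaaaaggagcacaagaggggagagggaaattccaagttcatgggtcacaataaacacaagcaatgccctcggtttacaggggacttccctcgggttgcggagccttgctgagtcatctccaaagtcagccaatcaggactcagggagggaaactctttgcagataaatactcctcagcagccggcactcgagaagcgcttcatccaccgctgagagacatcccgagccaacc
Il6, chr5:30012864-30013163, plus strand: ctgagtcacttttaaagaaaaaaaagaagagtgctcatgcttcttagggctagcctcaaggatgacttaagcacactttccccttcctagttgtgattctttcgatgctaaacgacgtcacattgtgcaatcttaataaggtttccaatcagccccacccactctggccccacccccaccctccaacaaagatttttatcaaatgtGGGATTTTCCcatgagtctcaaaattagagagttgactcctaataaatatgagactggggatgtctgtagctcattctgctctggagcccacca

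ISRE matches began 104 and 85 bases before the start in Ifit1, 120 bases before it in Rsad2 and 213 bases before it in Cxcl10. In Isg15, 3 overlapping matches began 78, 72 and 66 bases before it. The NF-kB match of Il6 began 44 bases before the start. Oasl2 held neither set of letters in this window. By gene, counting any promoter of this length in the table, the ISRE letters were present in 3.99% of all 27025 genes and 3.73% of tested genes, in 7.47% of genes called higher and in 2.60% of genes called lower. They were in 23 of the 46 antiviral effectors with a promoter in the table, in 10 of 11 interferon-inducible GTPases and in 7 of 11 nucleic acid sensors. They were also in 11 of 20 interferon ligand genes, none of which had enough reads to be tested. In other lists they were in 5 of 20 class I genes, 1 of 10 receptor and JAK-STAT genes and 1 of 9 interferon regulatory factors. Among inflammatory cytokines and chemokines they were in 0 of 20. The NF-kB letters were in 0.466% of all genes, in 5 of those 20 cytokines and chemokines (Csf1, Cxcl1, Cxcl2, Cxcl3 and Il6) and in 0 of the 46 antiviral effectors. A match describes letters in the window only, and a gene without a match can still hold a binding site with other letters.

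LPS raised 2673 of the 15221 genes tested in GR MUT cells kept in Dex (17.6%) and lowered 2567 (16.9%). At least 2-fold rises made up 724 of these (4.76%) and at least 2-fold falls 471 (3.09%). The median log2 difference of all tested genes was -0.0078, and each list below is read against these shares and this median. The plot of log2 differences by list shows interferon and inflammatory lists almost wholly above 0 and the Hox list below it.

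**Figure D1:**
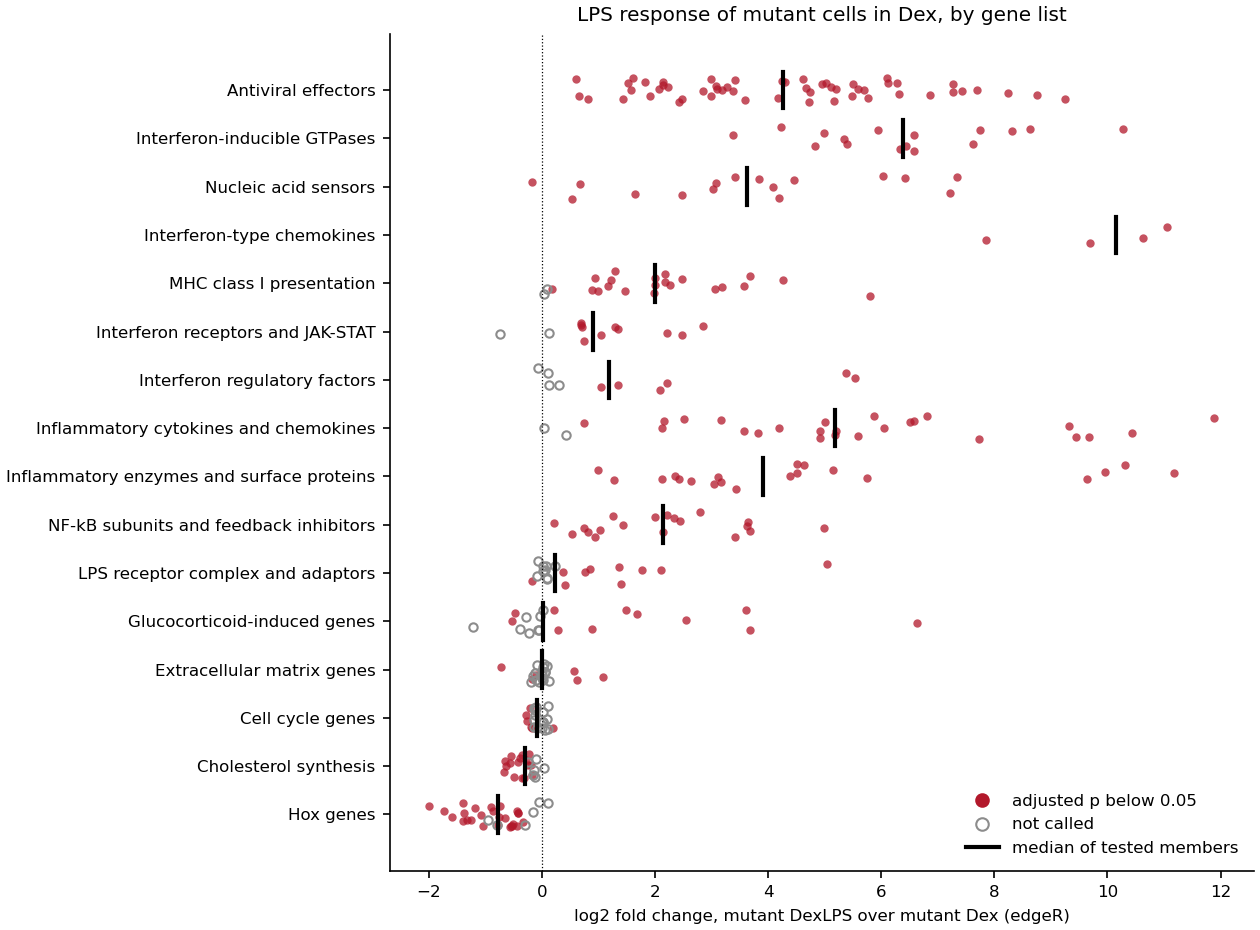
Log2 difference of GR MUT DexLPS against GR MUT Dex (x axis) for each tested member of 16 gene lists (rows); red points were called, open grey points were not, and black bars mark list medians. Antiviral effectors ran from 0.61 to 9.25 with a median of 4.27, and Hox genes had a median of -0.77.

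Genes of the LPS receptor complex and its adaptors had a median log2 difference of 0.23. Of 19 tested, 9 rose and 1 fell. Tlr4, the receptor, stood at 14.8, 9.805 and 12.5 CPM in GR MUT DexLPS and at 13.5, 13.2 and 12.7 CPM in GR MUT Dex cells (adjusted p 0.693), and Ticam1, the gene of TRIF, at 24.8, 26.8 and 26.6 CPM in GR MUT DexLPS and 25.7, 24.5 and 23.4 CPM in GR MUT Dex cells (adjusted p 0.34). The groups overlapped for both. Cd14, which hands LPS to the receptor, stood at 24.8, 33.1 and 26.9 CPM in GR MUT DexLPS and 6.91, 5.52 and 7.12 CPM in GR MUT Dex cells and rose by 2.12 ± 0.11 on the log2 scale. Lbp, the LPS-binding protein of serum, rose by 5.05 ± 0.30, and Myd88, the adaptor of the NF-kB branch, rose by 1.36 ± 0.06. The one fall was Ikbkg, the regulatory subunit of the IkB kinase, at -0.18 ± 0.07 with an adjusted p of 0.0496, close to the threshold. This fall was not called under any of the alternatives given at the end that kept all 6 libraries compared.

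Interferon transcripts themselves were near or under the detection limit at 6 h. None of 21 interferon ligand genes passed the filter on low counts. Ifnb1, interferon beta, had 3, 3 and 5 reads in the GR MUT DexLPS libraries and 0 in each GR MUT Dex library. Summed over the groups this was 4.35-fold higher with LPS against a floor of 3 reads over the group. The counting error of the few reads with LPS is not in this value, so it is no strict bound. Fitted without the filter, Ifnb1 was called higher (edgeR, adjusted p 0.0108). Ifnz had 5 reads in GR MUT DexLPS and 4 in GR MUT Dex cells, and the other 19 ligand genes, all interferon alpha genes and Ifng among them, had 0 in both groups.

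Receptor and signalling genes of the interferon pathway rose together. Of 12 tested members of the receptor and JAK-STAT list, 10 rose and 0 fell, with a median of 0.90; Jak1 and Ifnlr1 did not pass. Ifnar1 and Ifnar2, the 2 chains of the receptor for interferon alpha and beta, rose by 0.68 ± 0.05 and 1.29 ± 0.06. Stat2, of the transcription factor complex, stood at 213, 168 and 213 CPM in GR MUT DexLPS and 35.7, 34.1 and 36.7 CPM in GR MUT Dex cells (log2 2.48 ± 0.09, adjusted p 4.11e-16). Irf9, its DNA-binding partner, stood at 89.95, 85.9 and 92.2 CPM in GR MUT DexLPS and 18.4, 18.05 and 21.7 CPM in GR MUT Dex cells (2.21 ± 0.10). The groups did not overlap for either gene.

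Among interferon regulatory factors, 6 of 10 tested rose and 0 fell, with a median of 1.19. Irf7, which amplifies interferon production, stood at 83.9, 74.9 and 78.7 CPM in GR MUT DexLPS and 1.27, 1.35 and 2.49 CPM in GR MUT Dex cells, a rise of 5.54 ± 0.21, the largest of the list. Irf1 rose by 2.08 ± 0.06, Irf2 by 1.04 ± 0.08 and Irf5 by 1.35 ± 0.11. Irf3, which is activated by phosphorylation of existing protein, stood at 37.98, 47.4 and 39.7 CPM in GR MUT DexLPS and 36.6, 34.3 and 43.2 CPM in GR MUT Dex cells (adjusted p 0.386). Irf8, a factor of myeloid cells, also did not pass (adjusted p 0.889).

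Of 16 tested sensors of foreign nucleic acid, 15 rose and 1 fell, with a median of 3.62. Ddx58, the gene of the RNA helicase RIG-I, rose by 2.48 ± 0.09 and Ifih1, the gene of its relative MDA5, by 4.08 ± 0.18. Zbp1, a sensor of Z-form nucleic acid linked to cell death, stood at 17.3, 11.9 and 15.96 CPM in GR MUT DexLPS and 0.175, 0.0843 and 0.257 CPM in GR MUT Dex cells and rose by 6.42 ± 0.32. Cgas, the DNA sensor, rose by 0.68 ± 0.12, and its partner STING, listed as Tmem173, by 0.53 ± 0.05. Ifi203, Ifi204, Ifi205, Ifi211 and Mndal, of one cluster of related genes that can share reads, rose by 6.03, 3.84, 7.34, 3.09 and 4.47. The one fall was in Mavs, the adaptor of the RNA helicases, at -0.18 ± 0.05 (adjusted p 0.00664); it was not called when only the 2 compared groups were fitted (adjusted p 0.0692).

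All 54 antiviral effectors that were tested rose, of 56 found in the files; Ifi44l and Ifi27l2a were left untested because of low counts. The median was 4.27 and the range 0.61, in Ifi27, to 9.25, in Rsad2. Rsad2 (viperin, which makes a chain terminator for viral polymerases) stood at 262, 153 and 222 CPM in GR MUT DexLPS and 0.350, 0.253 and 0.429 CPM in GR MUT Dex cells, a rise of 9.25 ± 0.26. Cmpk2, a nucleotide kinase encoded next to it, stood at 146, 92.1 and 115 CPM in GR MUT DexLPS and 0.393, 0.295 and 0.472 CPM in GR MUT Dex cells, a rise of 8.24 ± 0.26. Isg15, a ubiquitin-like protein, stood at 160.3, 142 and 149.7 CPM in GR MUT DexLPS and 2.84, 2.15 and 3.303 CPM in GR MUT Dex cells, a rise of 5.77 ± 0.21. Each of these 3 genes was lowest in library 2 among those with LPS, and that library was still far above all those without LPS. Usp18, which removes ISG15 from proteins and dampens interferon receptor signalling, rose by 7.27 ± 0.19. Mx1 and Mx2, of the Mx GTPase family, rose by 8.76 ± 0.35 and 7.43 ± 0.18, and Oasl2 of the oligoadenylate synthetase family by 6.28 ± 0.21. Ifit3 and its close copy Ifit3b, which can share reads, rose by 6.87 and 7.26. Ifitm3, which blocks virus entry, was well read without LPS: it stood at 449, 510.4 and 451 CPM in GR MUT DexLPS and 177, 169 and 178 CPM in GR MUT Dex cells, a rise of 1.43 ± 0.08. Its relative Ifitm2 rose by 0.66 ± 0.09. Eif2ak2, the gene of PKR, rose by 1.62 ± 0.15 and Adar, the RNA-editing enzyme, by 1.58 ± 0.08.

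**Figure D2:**
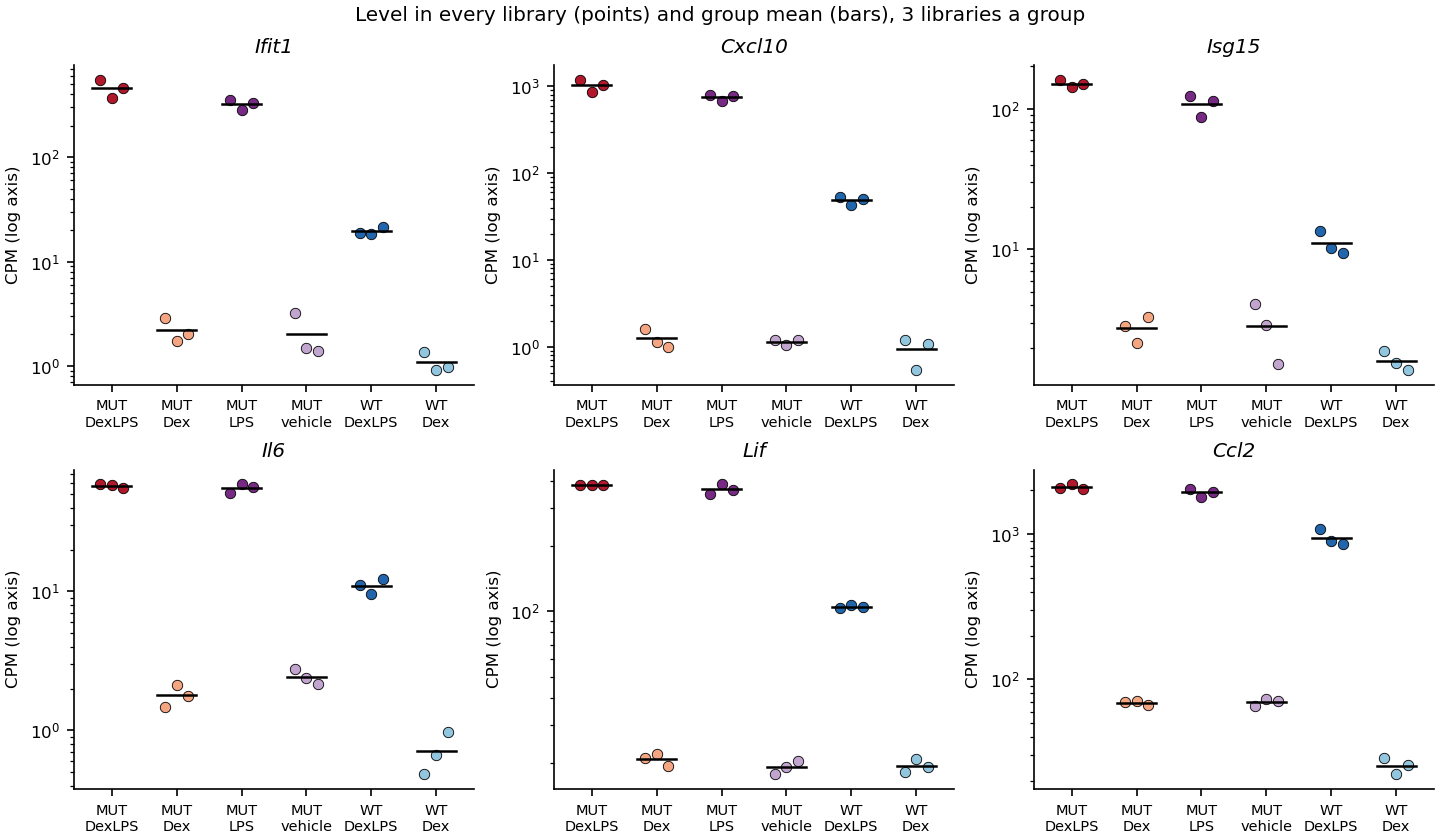
CPM of 6 genes (log axis) in each library of 6 groups; points are libraries and bars are means of 3. Ifit1 stood at 366 to 552 CPM in GR MUT DexLPS cells, and Lif at 381 to 384 CPM.

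The plot of levels by library shows every GR MUT DexLPS library above every GR MUT Dex library in all 6 genes. Summed over the 56 antiviral effectors, the level was 5905, 4389.6 and 5381 CPM in GR MUT DexLPS and 819, 795 and 826 CPM in GR MUT Dex cells. Without Dex it was 4355, 3793 and 4329.6 CPM in GR MUT LPS and 851, 858 and 793 CPM in GR MUT CTR cells. In wild-type cells it was 1335, 1285 and 1297 CPM in GR WT DexLPS and 738, 740.0 and 738 CPM in GR WT Dex cells. The sums without LPS lay within a narrow range in all 3 pairs, and those with LPS did not.

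Interferon-inducible GTPases, which attack the vacuoles of intracellular pathogens, rose in all 16 genes tested, of 19 found. Their median was 6.39, or 6.14 with genes at 0 reads in GR MUT Dex cells placed at their lower bound. Gbp2 stood at 392, 295 and 331 CPM in GR MUT DexLPS and 4.11, 3.63 and 3.95 CPM in GR MUT Dex cells, a rise of 6.44 ± 0.15. Gbp5 stood at 75.2, 44.7 and 57.7 CPM in GR MUT DexLPS and 0, 0.127 and 0 CPM in GR MUT Dex cells. On 3 reads without LPS, its ratio was 1382-fold (95% counting interval 472 to 6704). Irgm1, a regulator of the immunity-related GTPases, stood at 377, 296 and 359 CPM in GR MUT DexLPS and 34.4, 33.6 and 31.4 CPM in GR MUT Dex cells, a rise of 3.38 ± 0.10, and Igtp rose by 5.95 ± 0.18. Library 2 was the lowest of its group in all 16 of these genes, in 47 of 54 antiviral effectors and in 14 of the 15 sensors that rose, against 1159 of the 2673 genes called higher and 7 of 25 inflammatory cytokines and chemokines. Its median ratio to the mean of libraries 1 and 3 was 0.658 in the GTPases, 0.692 in the sensors and 0.759 in the antiviral effectors. It was 1.04 in the cytokines and chemokines. In the class I genes it was 0.969, and the same ratio of library 3 was 0.946. The part of exon length in this was not tested. Without library 2, 2527 genes were called higher and 2219 lower.

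**Figure D3:**
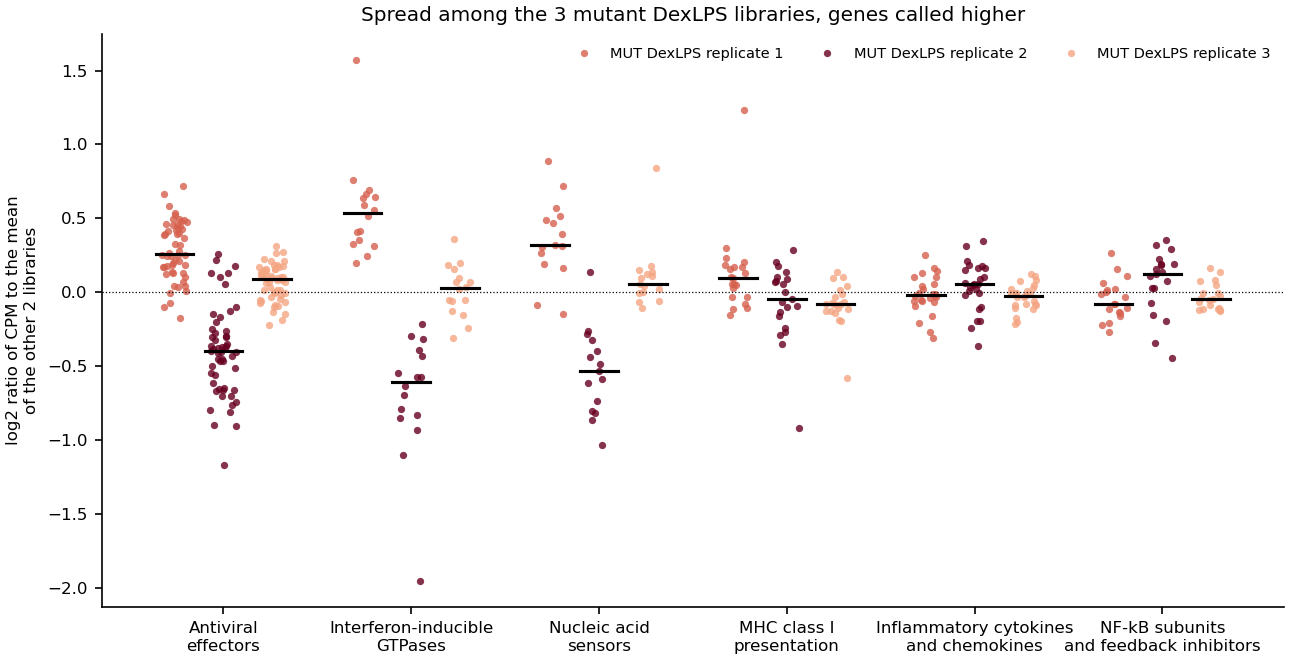
Log2 ratio (y axis) of each GR MUT DexLPS library to the mean of the other 2, for genes called higher in 6 lists (columns); black bars mark medians. Library 2 lies below the others in the antiviral effectors, GTPases and sensors. In the class I genes its median ratio was 0.969, beside 0.946 for library 3. Library 2 lies near 0 in the inflammatory cytokines and chemokines, where its median ratio was 1.04.

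The class I antigen presentation pathway rose in 21 of 23 tested genes, with a median of 2.01 and 0 falls. Heavy chain H2-K1 stood at 142, 143 and 131 CPM in GR MUT DexLPS and 36.5, 32.01 and 34.9 CPM in GR MUT Dex cells, a rise of 2.01 ± 0.08; heavy chain genes can share reads. B2m, the light chain, stood at 465, 459 and 452 CPM in GR MUT DexLPS and 244, 242 and 234 CPM in GR MUT Dex cells, a rise of 0.93 ± 0.04. The peptide transporter gene Tap1 rose by 2.47 ± 0.11 and the immunoproteasome subunit Psmb8 by 3.68 ± 0.14. Canx and Pdia3, chaperones that serve all glycoproteins, did not pass (adjusted p 0.7 and 0.229).

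All 4 chemokines of the interferon type rose. Beside Cxcl10, Cxcl9 stood at 92.1, 55.2 and 66.6 CPM in GR MUT DexLPS and 0.0874, 0 and 0 CPM in GR MUT Dex cells, a ratio of 2494-fold (95% counting interval 689.9 to 20598) on 2 reads without LPS. Cxcl11, a further gene of this list, stood at 9.99, 6.397 and 6.603 CPM in GR MUT DexLPS cells. It had 0 reads in GR MUT Dex cells, and was at least 178-fold higher with LPS on a floor of 3 reads over the group. Ccl5, which also attracts T cells, rose by 7.84 ± 0.23.

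Inflammatory cytokines and chemokines rose in 25 of 27 tested genes, with a median of 5.18 and 0 falls; Il33 and Il11 did not pass. Ccl2, which attracts monocytes, stood at 2052, 2202 and 2046 CPM in GR MUT DexLPS and 69.5, 71.4 and 66.6 CPM in GR MUT Dex cells (4.92 ± 0.09). Per kilobase of exon Ccl2 ranked 7 of the 15173 tested genes with an exon length, in GR MUT DexLPS cells. It stood ahead of Ccl7 at 22, Cxcl10 at 75, Cxcl5 at 94, Isg15 at 206 and Ifit1 at 248. Neutrophil attractant Cxcl1 stood at 366, 384 and 354 CPM in GR MUT DexLPS and 5.73, 6.11 and 4.85 CPM in GR MUT Dex cells (6.05 ± 0.10), and Cxcl2 rose by 9.67 ± 0.22. Tnf stood at 119, 126 and 122 CPM in GR MUT DexLPS and 0.699, 0.422 and 0.601 CPM in GR MUT Dex cells (7.73 ± 0.13). Il1b stood at 70.6, 77.9 and 69.9 CPM in GR MUT DexLPS cells and had 1 read in all GR MUT Dex libraries together, a ratio of 5085-fold (95% counting interval 912 to 200878). Lif, a cytokine of the IL-6 family, stood at 381, 384 and 381 CPM in GR MUT DexLPS and 21.2, 22.1 and 19.3 CPM in GR MUT Dex cells (4.19 ± 0.07). Among colony-stimulating factors, Csf1 rose by 2.17 ± 0.04, and Csf2, with 0 reads in GR MUT Dex cells and 5.79, 7.71 and 6.603 CPM in GR MUT DexLPS cells, was at least 156-fold higher. Il12b, a subunit of IL-12 made chiefly by myeloid cells, had a ratio of 929.5-fold (95% counting interval 166 to 36762) on 1 read without LPS. The part of the myeloid reads named above in these rises was not tested.

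NF-kB subunits and the inhibitors it induces rose in all 19 tested genes, with a median of 2.14. Nfkb1 rose by 2.14 ± 0.04. Nfkbia, the inhibitor IkB alpha, stood at 239, 266 and 248 CPM in GR MUT DexLPS and 18.9, 18.4 and 21.5 CPM in GR MUT Dex cells (3.68 ± 0.10), and Tnfaip3, the inhibitor A20, rose by 4.98 ± 0.09. Socs1 and Socs3, inhibitors of JAK kinases, rose by 1.43 ± 0.20 and 0.53 ± 0.11. Dusp1, a phosphatase that switches off p38, had the smallest rise of the list at 0.22 ± 0.07 (adjusted p 0.0138).

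Inflammatory enzymes and surface proteins rose in all 20 tested genes, with a median of 3.90. Nos2, the inducible nitric oxide synthase, stood at 50.5, 38.01 and 44.4 CPM in GR MUT DexLPS cells with 1 read in GR MUT Dex cells, a ratio of 3099.7-fold (95% counting interval 556 to 122477). Acod1, which makes itaconate, rose by 9.95 ± 0.18 and the acute phase gene Saa3 by 9.64 ± 0.32. Lcn2, which binds bacterial siderophores, was at 6.41, 6.502 and 5.47 CPM in GR MUT DexLPS cells and 0 reads in GR MUT Dex cells, at least 142-fold higher. Ptgs2, the prostaglandin synthase COX-2, stood at 980.5, 698 and 989.7 CPM in GR MUT DexLPS and 175, 174 and 172 CPM in GR MUT Dex cells (2.36 ± 0.13). Adhesion molecules Icam1 and Vcam1 rose by 4.52 ± 0.09 and 2.43 ± 0.07, and matrix metalloproteinases Mmp3 and Mmp9 by 4.63 ± 0.09 and 3.17 ± 0.09. Outside the lists, Cd69, a lectin of activated leukocytes, was at 10.3, 10.3 and 10.7 CPM in GR MUT DexLPS cells and 0 reads in GR MUT Dex cells, at least 243-fold higher.

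Genes that fell included most of the Hox genes, the transcription factors that set position along the body and limb axes. Of 32 tested, 26 fell and 0 rose, with a median of -0.77. All 10 HoxA genes (median -1.23), all 6 HoxC genes (-0.61) and 6 of 8 HoxD genes (-1.07) fell, against 4 of 8 HoxB genes (-0.31). Hoxa10 stood at 6.51, 6.29 and 7.24 CPM in GR MUT DexLPS and 21.3, 22.4 and 22.8 CPM in GR MUT Dex cells, a fall with a log2 difference of -1.73 ± 0.08 (adjusted p 1.37e-13). Hoxd13 stood at 16.8, 16.9 and 17.8 CPM in GR MUT DexLPS and 41.1, 36.98 and 39.3 CPM in GR MUT Dex cells (-1.19 ± 0.08), and Hoxd12 had the largest fall of the list at -1.99 ± 0.16. For these 3 genes every library with LPS lay below every library without it, as it did in 23.3% of all tested genes. Hoxb9 stood at 54.7, 53.8 and 50.7 CPM in GR MUT DexLPS and 53.6, 56.4 and 55.4 CPM in GR MUT Dex cells, and the groups overlapped (adjusted p 0.48). In wild-type cells kept in Dex, 18 of the 32 fell, with a median of -0.44, beside 9.35% of all tested genes called lower in that contrast. The plot of the Hox genes by cluster shows both genotypes.

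**Figure D4:**
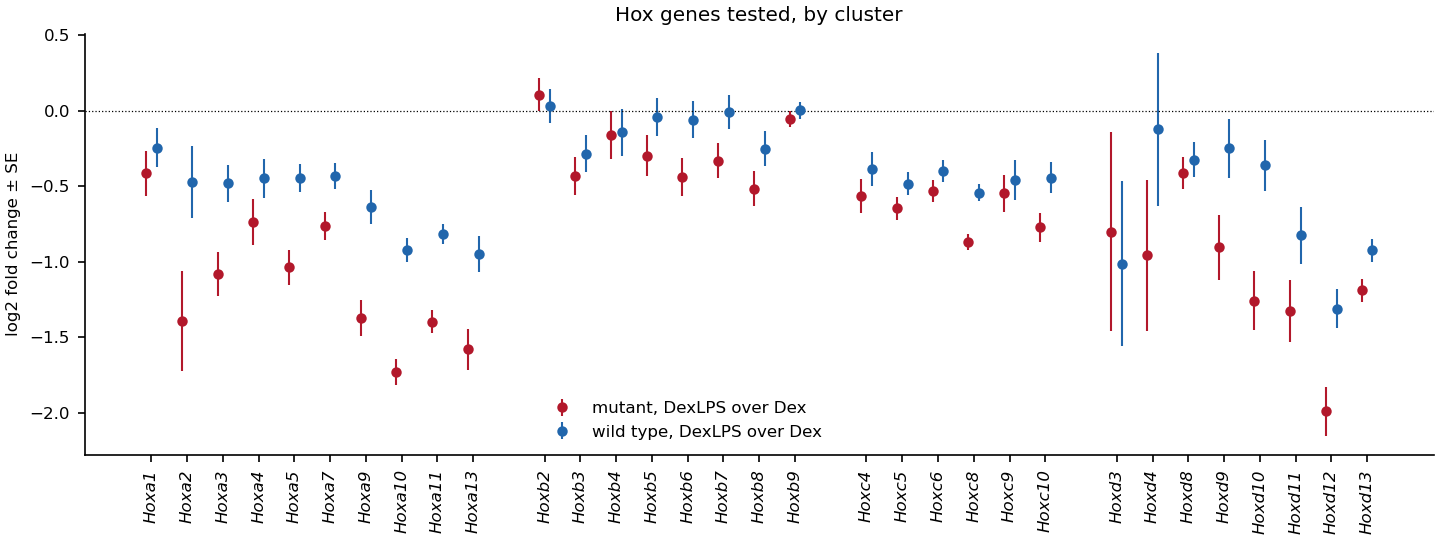
Log2 difference with LPS in Dex ± SE (y axis) for 32 Hox genes by cluster, mutant in red at left and wild type in blue at right of each gene. HoxA and HoxD genes of the mutant lie lowest, down to -1.99 in Hoxd12.

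Cholesterol synthesis genes fell in 16 of 22 tested and rose in 0, with a median of -0.30. Dhcr7, of the last step, stood at 39.7, 45.1 and 42.03 CPM in GR MUT DexLPS and 69.4, 67.2 and 65.8 CPM in GR MUT Dex cells (-0.67 ± 0.06), and Insig1, a sterol-dependent regulator of the pathway, fell with a log2 difference of -0.63 ± 0.05. Cell cycle genes rose in 1 and fell in 5 of 22, and extracellular matrix genes rose in 3 and fell in 3 of 22, both near or under the shares of all genes.

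The largest single falls were of genes with low counts. Ppp1r3c, a targeting subunit for glycogen synthesis, stood at 0.103, 0.0524 and 0.197 CPM in GR MUT DexLPS and 3.19, 2.404 and 3.39 CPM in GR MUT Dex cells (-4.60 ± 0.47). Palmd stood at 0.205, 0.419 and 0.345 CPM in GR MUT DexLPS and 5.25, 5.398 and 5.53 CPM in GR MUT Dex cells (-4.04 ± 0.23). Several others encode proteins of leukocytes. Cx3cr1, the fractalkine receptor of monocytes and macrophages, stood at 1.13, 0.682 and 0.542 CPM in GR MUT DexLPS and 8.92, 7.76 and 7.68 CPM in GR MUT Dex cells (-3.37 ± 0.24). The chemokine receptor Cxcr4 had a log2 difference of -3.66 ± 0.67, the lipid phosphatase Inpp5d of -3.38 ± 0.31, and Nfam1, Cd300lb and Fmnl1 of -3.14, -2.80 and -2.55. Of 11 tested leukocyte markers, 3 rose, 5 fell and 3 did not pass. Ptprc and Adgre1 rose by 1.34 ± 0.14 and 1.09 ± 0.11, while Csf1r and Laptm5 fell, at -0.53 ± 0.08 and -0.49 ± 0.09. The part of a change in leukocyte number in these values was not tested. The remaining genes of the 12 largest falls were Hpgd, Ankrd35, Gucy1a1 and Lrrtm3, between -2.76 and -2.47.

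Set against wild-type cells kept in the same Dex, the response of the mutant was larger for most antiviral effectors. In GR WT cells, LPS in Dex raised 1563 genes (10.3%) and lowered 1423 (9.35%). Of the genes called in the mutant, 1401 were also called higher in the wild type, which is 52.4% of the mutant list and 89.6% of the wild-type list, 1165 were called lower in both (45.4% and 81.9%), and 13 went opposite ways. The test of the difference, mutant minus wild type, called 544 genes higher (3.57%) and 207 lower (1.36%). Of the 544, 527 were called higher in the mutant and 344 in the wild type. Fitting the 4 groups of this difference alone gave 335 and 115 calls, and leaving out 5 libraries that stand apart from their groups gave 1380 and 667. Those are replicate 2 of GR MUT DexLPS and replicates 1 and 3 of GR WT DexLPS. The others are replicate 2 of GR MUT LPS and replicate 1 of GR MUT CTR. The lone GR WT DexLPS library left is then assumed to vary like the other groups. Of the libraries left out, GR WT DexLPS 3, GR MUT LPS 2 and GR MUT CTR 1 held 58.0, 43.9 and 53.1 M counted reads. Deviation in GR WT DexLPS 1 had a rank correlation with exon length of -0.668. The part of depth and exon length in these calls was not tested. The pairs share no library, but the leukocyte marker sums above also differed between the genotypes. Endothelial markers summed to 9.07, 7.97 and 9.95 CPM in GR MUT DexLPS against 22.3, 24.6 and 26.6 CPM in GR WT DexLPS cells. Epithelial and skeletal muscle sums were also lower in the mutant. Liver markers varied between replicates, at 1.87, 44.6 and 200 CPM in GR WT DexLPS and 181, 25.9 and 30.1 CPM in GR MUT CTR cells. The part of these markers in the calls was not tested.

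Ifit1, at 366 to 552 CPM in GR MUT DexLPS, stood at 18.9, 18.2 and 21.2 CPM in GR WT DexLPS, with 1.37, 0.909 and 0.974 CPM in GR WT Dex cells. Its response in the mutant was larger by 3.54 ± 0.48 on the log2 scale (adjusted p 3.72e-05). Cxcl10 stood at 53.4, 43.3 and 50.2 CPM in GR WT DexLPS and 1.21, 0.537 and 1.08 CPM in GR WT Dex cells, and its response differed by 3.98 ± 0.38 (adjusted p 2.52e-07). Il6 stood at 11.2, 9.54 and 12.3 CPM in GR WT DexLPS and 0.482, 0.661 and 0.974 CPM in GR WT Dex cells; its difference was 1.00 ± 0.26 (adjusted p 0.0263), and this call was lost under 5 of the alternatives given at the end. All 3 genes thus rose in both genotypes, and with LPS their levels were higher in the mutant.

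By list, the difference was called higher in 45 of 54 antiviral effectors (median difference 2.24), 8 of 16 GTPases, 10 of 16 sensors, 7 of 12 receptor and JAK-STAT genes, 5 of 10 interferon regulatory factors and 15 of 23 class I genes, and lower in 0 of each. The median response of the antiviral effectors was 4.27 in the mutant and 1.85 in the wild type, and 46 of the 54 were called higher in the wild type. Stat2 stood at 41.6, 48.01 and 47.8 CPM in GR WT DexLPS and 37.1, 34.7 and 37.98 CPM in GR WT Dex cells, a difference between the responses of 2.15 ± 0.12. For Irf9 this difference was 1.57 ± 0.14 and for Irf7 3.12 ± 0.39. Usp18 differed by 4.06 ± 0.39, Irgm1 by 2.62 ± 0.14 and B2m by 0.63 ± 0.06. Of these 6 genes, each had an adjusted p of at most 1.38e-05. Ifnb1 had 11 reads in GR MUT DexLPS and 2 in GR WT DexLPS cells and did not pass the filter. It had no read in GR MUT Dex or GR WT Dex cells. Without reads there, the test of its difference without the filter could not have made a call, so it decides nothing.

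**Figure D5:**
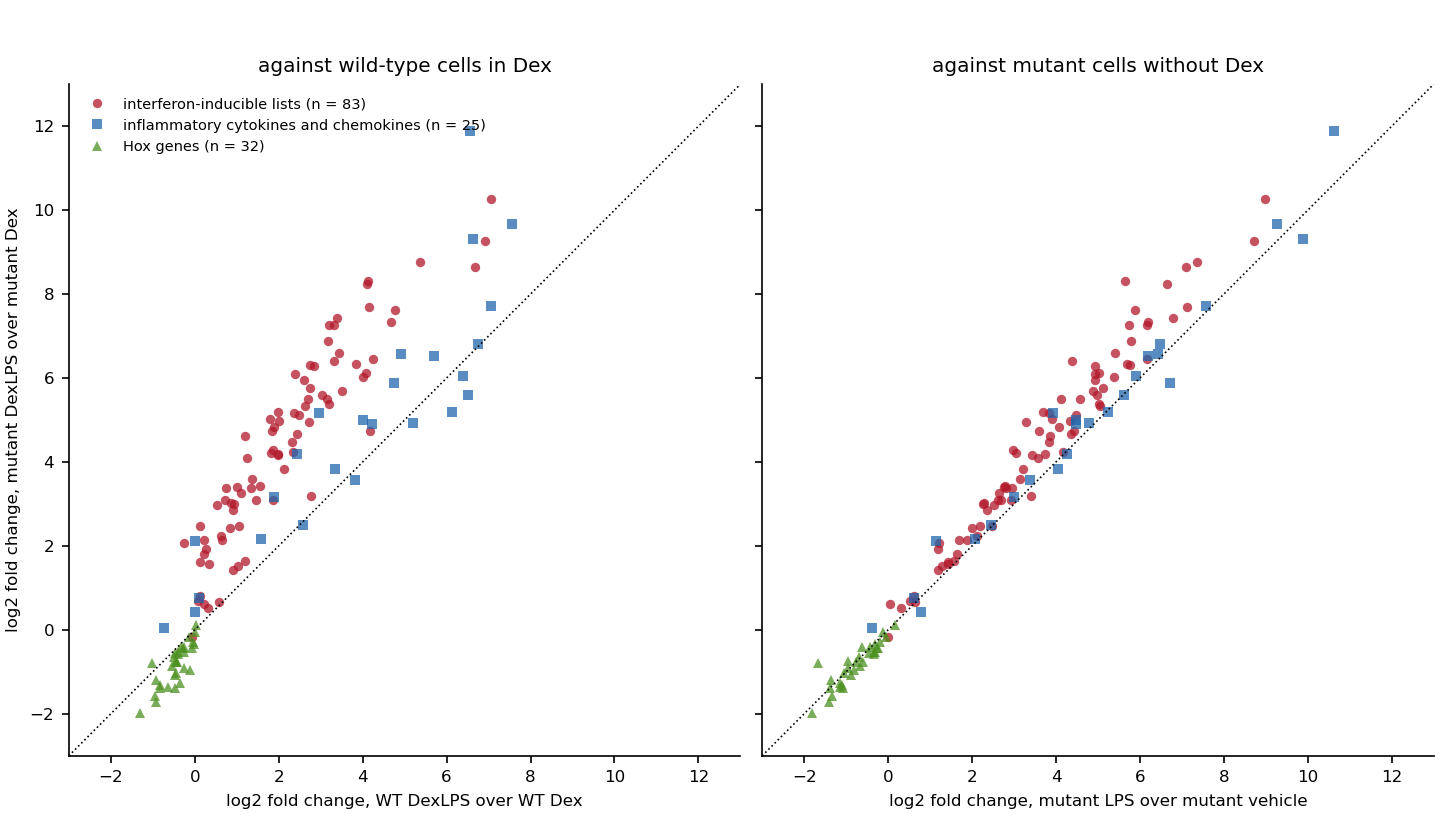
Log2 response of the mutant in Dex (y axis) against the wild type in Dex (left) and the mutant without Dex (right), for members with a read in all 6 groups; the dotted line marks equal responses. Above the line lay 82 of 83 interferon-inducible genes, 19 of 25 inflammatory cytokines and chemokines and 2 of 32 Hox genes at left, and 80 of 83, 18 of 25 and 10 of 32 at right.

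For the inflammatory cytokines and chemokines the median difference was 0.76. The median response was 5.18 in the mutant and 4.76 in the wild type, and the difference was called higher in 8 and lower in 1 of 27. Ccl2 stood at 1073, 891 and 849 CPM in GR WT DexLPS and 28.6, 22.2 and 25.8 CPM in GR WT Dex cells, and its difference of -0.27 ± 0.12 did not pass (adjusted p 0.256). Cxcl1 (-0.36 ± 0.15, adjusted p 0.26), Ccl20 (0.06 ± 0.28, 0.988) and Tnf (0.67 ± 0.54, 0.771) did not pass either. Lif stood at 104, 107 and 105 CPM in GR WT DexLPS and 18.2, 20.9 and 19.1 CPM in GR WT Dex cells, a difference of 1.76 ± 0.09 (adjusted p 2.59e-11). The gene called lower was Cxcl5, at -0.93 ± 0.17. Its level was nonetheless higher in the mutant in both conditions, at 783, 664 and 735 CPM in GR MUT DexLPS and 19.5, 19.7 and 20.3 CPM in GR MUT Dex cells, against 162, 147 and 144 CPM in GR WT DexLPS and 1.81, 2.27 and 2.46 CPM in GR WT Dex cells. NF-kB genes were called higher in the difference in 9 of 19, with Nfkbia at 1.08 ± 0.13 and Tnfaip3 at 1.47 ± 0.12. Inflammatory enzymes were called higher in 13 of 20, with Mmp9 at 2.23 ± 0.13.

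The largest differences by genotype that passed included genes near 0 in one group. Cxcl9 stood at 2.58, 1.93 and 2.96 CPM in GR WT DexLPS and 0.241, 0.330 and 0.308 CPM in GR WT Dex cells, a difference of 7.93 ± 1.18. Ccrl2, a chemokine-binding receptor, stood at 16.3, 13.1 and 13.6 CPM in GR MUT DexLPS and 0, 0.0843 and 0.0429 CPM in GR MUT Dex cells, against 1.25, 1.61 and 1.81 CPM in GR WT DexLPS and 0.281, 0.206 and 0.154 CPM in GR WT Dex cells. Both genes were read more in the mutant with LPS and less in the mutant without it. Gm12185, Il1b and Clic5 differed by 5.52 ± 0.76, 5.34 ± 1.37 and 5.25 ± 0.60. Lcn2 differed by 4.80 ± 1.29 although its level was lower in the mutant, at 39.4, 26.6 and 27.8 CPM in GR WT DexLPS and 0.643, 0.661 and 0.769 CPM in GR WT Dex cells. Mmp13 differed by 4.46 ± 0.96, and this rested on replicate 3 of GR WT Dex, where it stood at 7.48 CPM beside 0.764 and 0.372; without it the difference was 2.27 with an adjusted p of 0.342. For Cxcl9, Il1b, Ccrl2 and Lcn2, with 0 to 3 reads summed over GR MUT Dex cells, the fitted size depends on the prior count and is no bound. Lower responses in the mutant were called for Ppp1r3c (-3.53 ± 0.66), Palmd (-2.37 ± 0.31), Gab3 (-2.27 ± 0.48), Ntf3 (-1.72 ± 0.27), Cx3cr1 (-1.61 ± 0.38), Inpp5d (-1.55 ± 0.44), Gprin3 (-1.50 ± 0.39) and Cdkl1 (-1.35 ± 0.25). The call of Inpp5d was lost under 11 of the alternatives and that of Gprin3 under 8, as were those of Lcn2 under 5 and Il1b under 4. Of the Hox genes, 7 of 32 were called lower in the difference, with Hoxa10 at -0.81 ± 0.11.

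Of 19 tested genes that glucocorticoids are known to induce through GR, LPS raised 9 and lowered 2 in the mutant (median 0.01), and raised 6 and lowered 6 in the wild type (median -0.11); the difference was called higher in 5 and lower in 1. Fkbp5, a co-chaperone of GR, stood at 42.5, 40.9 and 42.2 CPM in GR MUT DexLPS and 45.8, 41.3 and 44.9 CPM in GR MUT Dex cells, against 253, 243 and 235 CPM in GR WT DexLPS and 309.8, 319 and 293 CPM in GR WT Dex cells. Tsc22d3, the gene of GILZ, stood at 20.5, 19.6 and 17.9 CPM in GR MUT DexLPS and 27.5, 30.2 and 25.6 CPM in GR MUT Dex cells, against 76.6, 66.4 and 68.2 CPM in GR WT DexLPS and 128, 122 and 126 CPM in GR WT Dex cells. Levels of both genes were lower in the mutant, and LPS changed Tsc22d3 by -0.52 ± 0.07 there. Fam107a stood at 0.410, 0.577 and 0.443 CPM in GR MUT DexLPS cells and 0 reads in GR MUT Dex cells, against 9.16, 8.82 and 9.27 CPM in GR WT DexLPS and 11.98, 10.99 and 11.1 CPM in GR WT Dex cells, so its called difference of 6.95 ± 0.72 came with a level far below the wild type. The members that rose in the mutant included Nfkbia, Angptl4 (3.61 ± 0.12), Mt2 (2.54 ± 0.21) and Errfi1 (1.49 ± 0.05), the last an inhibitor of the EGF receptor.

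Set against mutant cells without Dex, the response of mutant cells in Dex did not differ at the threshold for any gene with edgeR. In GR MUT cells given ethanol, LPS raised 2887 genes (19% of those tested) and lowered 2699 (17.7%). Of the genes called in Dex, 2172 were called higher in both, which is 81.3% of the list in Dex and 75.2% of the list without it, 1927 were called lower in both (75.1% and 71.4%), and 0 went opposite ways. edgeR's test of the difference, in Dex minus without, called 0 genes (0% in either direction). Its smallest adjusted p was 0.257, and 809 genes (5.32%) had an unadjusted p under 0.05. Among these were 28 of 54 tested antiviral effectors, 8 of 16 GTPases, 8 of 16 sensors and 4 of 23 class I genes. With DESeq2 there were 3 calls, all higher in Dex: Lgals9, Usp18 and Xaf1. Lgals9 was named after its values were seen. A missed threshold does not show that the responses were equal.

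Within this difference, most antiviral genes had a positive estimate. The estimate was above 0 in 52 of 54 antiviral effectors, with a median of 0.62, beside 49.5% of all tested genes above 0. The median was 0.70 in the GTPases, 0.49 in the sensors, 0.16 in the class I genes, 0.14 in the inflammatory cytokines and chemokines and -0.11 in the Hox genes. Genes of a list share libraries and are not independent replicates. Ifit1 stood at 351, 284 and 334 CPM in GR MUT LPS and 3.21, 1.47 and 1.39 CPM in GR MUT CTR cells, and its difference was 0.57 ± 0.34 (adjusted p 0.936). That estimate was -0.05 without the 5 libraries that stand apart and -0.11 without replicate 1 of GR MUT CTR alone. Usp18 stood at 83.2, 65.7 and 80.3 CPM in GR MUT LPS and 1.87, 0.951 and 1.01 CPM in GR MUT CTR cells, a difference of 1.54 ± 0.31 (adjusted p 0.334). Cxcl10 stood at 803, 673 and 781 CPM in GR MUT LPS and 1.18, 1.05 and 1.18 CPM in GR MUT CTR cells (0.34 ± 0.30, adjusted p 0.974). Il6 stood at 50.8, 59.3 and 56.4 CPM in GR MUT LPS and 2.75, 2.38 and 2.15 CPM in GR MUT CTR cells (0.53 ± 0.19, adjusted p 0.901). Without the 5 libraries, 15 genes were called higher and 2 lower (Ddit4 and Zfp36), and the median of the antiviral effectors was 0.42.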

How the data were processed

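The deposited files are tables of read counts per gene and library; per the submitters' processing notes, the authors used STAR (versions 2.4.2 and 2.4.2a are named) and mm10. Poly-A RNA was sequenced from a stranded library kit, per the labels' protocols, and the count column for the antisense-stranded protocol (column 4) was used as deposited. Reads with no gene stayed out of library sizes: 3.57 to 4.52% had no feature and 1.25 to 1.32% were ambiguous in the 6 libraries compared, with 4.98 to 5.67% mapped to several places. Of 45706 gene entries, 15221 passed filterByExpr. edgeR 4.0.16 (R 4.3.3, limma 3.58.1) fitted all 24 libraries with 1 coefficient per group by robust quasi-likelihood after TMM scaling, and 5 contrasts were tested, each with Benjamini-Hochberg adjustment over all tested genes. Differences between responses were tested as contrasts of contrasts. The fit was first tested on simulated counts with known changes. Those counts had 1 fixed spread and no library that stood apart, so that test does not cover such libraries. SE is the standard error of a log2 difference.

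Gene lists and members were chosen with earlier results of these data known. Named genes are Ifit1, Cxcl10, Il6 and Nr3c1, list members, and, among called protein-coding genes of at least 1 CPM without read-sharing remarks, the 12 largest rises and falls of the response and the 8 largest of each difference. Some list members are counted but not reported here by name. Folds against 0 reads use a floor of 3 reads over the group and cover the counting error of that group only. Ratios on 1 to 3 reads carry an exact 95% counting interval, which covers counting error only. Alternatives were DESeq2 size factors, no low-count filter, the DESeq2 1.42.0 test, only the compared groups, a replicate block, unstranded counts, leaving out 5 libraries that stand apart, and each library in turn. Same-numbered deviations of GR MUT DexLPS and GR MUT Dex libraries had correlations of 0.136, -0.295 and -0.288. Those of GR MUT DexLPS and GR MUT LPS libraries had correlations of 0.0937, 0.429 and 0.388. With 3 libraries a group, some of which stand apart, these values cannot show whether replicate numbers pair the samples. Gene positions are from GENCODE coordinates of GRCm38 and promoters from RefSeq. The authors' deposited tables of their own comparisons were not used here.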

Additional observations from a re-analysis of the deposited data

Results flagged for a closer look

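A test of the difference itself picked out 31 named genes whose log2 response to LPS in Dex differed between GR MUT and GR WT cells; each value below is mutant minus wild type. The markers were Ifit1 (3.54), Cxcl10 (3.98) and Il6 (1.00). Among genes of interferon signalling and its targets the differences were Stat2 (2.15), Irf9 (1.57), Irf7 (3.12), Usp18 (4.06), Irgm1 (2.62), B2m (0.63), Cxcl9 (7.93) and Gm12185 (5.52). Among cytokines, NF-kB inhibitors and enzymes they were Lif (1.76), Il1b (5.34), Nfkbia (1.08), Tnfaip3 (1.47), Mmp9 (2.23), Mmp13 (4.46), Lcn2 (4.80) and Ccrl2 (5.39), with Cxcl5 the other way at -0.93. Cxcl9, Il1b, Ccrl2, Lcn2 and Fam107a had 0 to 3 reads over the GR MUT Dex libraries, so their sizes depend on the prior count and are no bounds. Fam107a (6.95) and Clic5 (5.25) had estimates above 0 in the mutant (6.63 and 4.39) and below 0 in the wild type (-0.32 and -0.86). Lower responses in the mutant were those of Ppp1r3c (-3.53), Palmd (-2.37), Gab3 (-2.27), Ntf3 (-1.72), Cx3cr1 (-1.61), Inpp5d (-1.55), Gprin3 (-1.50), Cdkl1 (-1.35) and Hoxa10 (-0.81). Gab3 was the one of these with opposite estimates, -1.45 in the mutant and 0.82 in the wild type.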

How the results depend on the processing

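The LPS response of the mutant in Dex kept its counts within 1.5 times of 2673 and 2567 under every alternative run. For 74 of its named genes, 961 of 962 values kept their direction and side of the threshold, and the exception was Mavs. Ikbkg was not among these 74, and its fall was not called under any alternative that kept all 6 libraries compared. Leaving out 1 library gave 2273 to 2527 genes higher and 2145 to 2416 lower. The response without Dex gave 2327 to 2647 and 2335 to 2656 in the same way. The wild-type response in Dex gave 1188 to 1934 and 1011 to 1857, and fell to 755 and 564 calls, against 1563 and 1423, when only its groups were fitted. The difference by genotype gave 442 to 671 and 151 to 293 when 1 library was left out. It gave 335 and 115 with the compared groups only, and 1380 and 667 without the 5 libraries that stand apart. For 31 of its named genes, 554 of 589 values kept their call and 35 lost it, in Il6, Mmp13, Il1b, Lcn2, Inpp5d and Gprin3. The difference by Dex, 0 calls in the main analysis, gave 3 higher with DESeq2, 0 to 4 higher and 0 lower when 1 library was left out (4 without replicate 3 of GR MUT CTR), and 15 higher and 2 lower without the 5 libraries. Its Ifit1 estimate was -0.053 without the 5 libraries, -0.11 without replicate 1 of GR MUT CTR, and -0.11 to 0.82 over all libraries left out. Usp18 was called in it with DESeq2 (1.52, adjusted p 0.00436). The causes were not tested. Fitting fewer groups leaves fewer libraries to estimate the spread.

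The replicate number as a block gave 2592 genes higher and 2537 lower in the LPS response of the mutant in Dex. Whether the numbers pair the samples could not be told, and Inpp5d lost its difference by genotype under the block (edgeR, adjusted p 0.0847). At 19.5 to 22.6 M reads per library, no interferon ligand passed the filter on low counts. Without the filter 3 were tested, and Ifnb1 was called higher in the mutant in Dex (adjusted p 0.0108) and without Dex (0.0200). Folds against 0 reads are lower bounds that leave out the counting error of the group with reads.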
